A study of Homo sapiens with 12 samples.

Results

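The haemoglobin genes of HEL cells and the gene of their alpha-chain chaperone were followed on 12 arrays after JAK2 was knocked down with short hairpin RNAs. The genes were HBZ, HBE1, HBG1, HBG2, HBD, HBB, HBA1, HBA2, HBQ1 and AHSP. Every probe set (a group of array probes summarised as 1 value) whose platform annotation names any of these 10 genes was taken, which gave 18 of the 22406 probe sets tested and 10 of the 12039 genes named among them. Of these, 14 carry 1 gene symbol, and 4 are shared by a near-identical pair, 3 by HBA2 and HBA1 and 1 by HBG2 and HBG1. The names of 12 of the 18 end in _x_at, the array maker's mark for probes that may also match other transcripts. Because HBA1 and HBA2, and likewise HBG1 and HBG2, encode nearly the same messenger RNA, a probe set annotated to a single copy is uncertain as to which copy it reads, and the HBB and HBD sequences are also close to each other.

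HEL is an established human leukaemia line of erythroid and megakaryocytic character, labelled as an AML line homozygous for the activating JAK2V617F allele, which all 4 groups carry. Cells received a lentiviral pLKO hairpin with puromycin selection: Jak2-9 or Jak2-10, which target JAK2, a luciferase hairpin without a target in the cells (Luc), or a GFP control, which the labels call both a vector control and a hairpin control. Each group had 3 arrays. Nothing in the labels says that the replicates of a group were separate cultures, so the p-values reflect only array-to-array spread, part or all of which may be technical. All values come from 1 cell line, and the sources used here do not give the time from infection to harvest.

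Haemoglobin is a tetramer of alpha-like and beta-like globin chains, each holding a haem group. The alpha-like genes lie together on chromosome 16 in the order HBZ, HBA2, HBA1 and HBQ1, and the beta-like genes on chromosome 11 in the order HBE1, HBG2, HBG1, HBD and HBB. During development the embryonic chains zeta and epsilon are replaced by the alpha chain and the fetal gamma chain, and gamma later by the adult beta chain, a succession known as globin switching. Switching is controlled in cis by distal enhancers and in trans by erythroid activators and by repressors of the embryonic and fetal genes. HEL cells are known for making embryonic and fetal globins. AHSP, the alpha-haemoglobin stabilising protein, binds free alpha chains until they pair with beta-like chains.

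The JAK2 transcript was lower on all 3 arrays of each hairpin group than on all 6 control arrays. At the probe set 205842_s_at it was 59.3% of control with Jak2-9 and 67.0% with Jak2-10 (limma, adjusted p = 0.00569 and 0.0556), and at 205841_at it was 56.0% and 64.5% (limma, adjusted p = 0.0412 and 0.329). Exact two-sided permutation tests gave p = 0.0238 for each of these 4 comparisons, also after adjustment over the 4, and 0.0238 is the smallest value that the 84 arrangements allow. Jak2-9 replicate 1 stood apart: 592 probe sets differed more than 2-fold between it and the other Jak2-9 arrays, against 0 to 36 on every other array. It also had the highest 3′ to 5′ log2 differences at the array's ACTB and GAPDH control probe sets, which gauge RNA integrity, at 0.42 and 0.09, against 0.13 to 0.38 and -0.13 to -0.00 on the other 11. Erythroid marker genes were measured for 8 of 12 list members, and SLC4A1, the anion exchanger of mature red cells, was the only one below the median of all probe sets. In these bulk RNA samples, a change in the share of cells making a globin and a change in its RNA per cell cannot be told apart. Results that rest on Jak2-9 are given below with and without replicate 1.

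A rise after JAK2 knockdown passed the test for 1 HBB probe set with both hairpins together, and for that probe set and HBZ with Jak2-9, while the other globins did not pass in any comparison. The mean of both hairpin groups lay above the mean of both control groups at 18 of 18 probe sets (17 of 18 after quantile normalization), as at 60.4% of all probe sets, with a median log2 difference of 0.19, while the median over all probe sets was 0.03. After Benjamini-Hochberg adjustment over all 22406 probe sets, with a threshold of 0.05, 1 of 18 was called, an HBB probe set, and it was higher. Among all probe sets 3.14% were called in either direction and 0.629% were called higher. At an unadjusted p under 0.05, 8 of 18 were higher, against 8.98% of all probe sets. Knockdown arrays all lay above control arrays at 2 of 18 probe sets (HBZ and HBB 217232_x_at), against 1.03% of all. Of the 5669 probe sets with a mean log2 intensity at least that of HBZ, 719 were higher at that unadjusted p. At 114 of these 5669 the knockdown arrays all lay above the controls. Probe sets of 1 gene or of near-identical genes share their transcripts, so the 18 are not 18 separate observations.

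The hairpins were then set against the controls one at a time, and both comparisons share the same 6 control arrays. With Jak2-9, 2 of 18 probe sets were called, HBZ and HBB 217232_x_at, both higher, where 4.27% of all probe sets were called in either direction and 1.64% higher. At an unadjusted p under 0.05, 13 of 18 were higher with Jak2-9, against 13.5% of all, and at 9 of 18 the 3 Jak2-9 arrays lay above all controls, against 7.48% of all. Of the 5669 probe sets at least as bright as HBZ, 163 were called higher with Jak2-9 and 1299 were higher at the unadjusted p. The 3 Jak2-9 arrays lay above all controls at 899 of these 5669. The median log2 difference of the 18 was 0.29 with Jak2-9, against 0.04 over all probe sets. With Jak2-10, 0 of 18 were called by limma, where 1.37% of all were called in either direction and 0.0848% higher. At an unadjusted p under 0.05, 2 of 18 were higher with Jak2-10 (HBZ and HBB 217232_x_at), against 2.81% of all, and the same 2 lay above all controls on all 3 arrays, against 2.58% of all. Among the 5669 at least as bright as HBZ, these counts with Jak2-10 were 81 and 159. The median of the 18 with Jak2-10 was 0.06, against 0.02 over all probe sets. Without Jak2-9 replicate 1 the knockdown comparison called 1 of 18, which was then HBZ in place of HBB, with 3.56% of all probe sets called. Without that array, Jak2-9 called 0 of 18, against 2.19% of all probe sets, and 7 were higher at an unadjusted p under 0.05, against 7% of all. Jak2-10 then called 1 of 18, HBZ, where 2.19% of all were called in either direction and 0.29% higher.

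**Figure D1:**
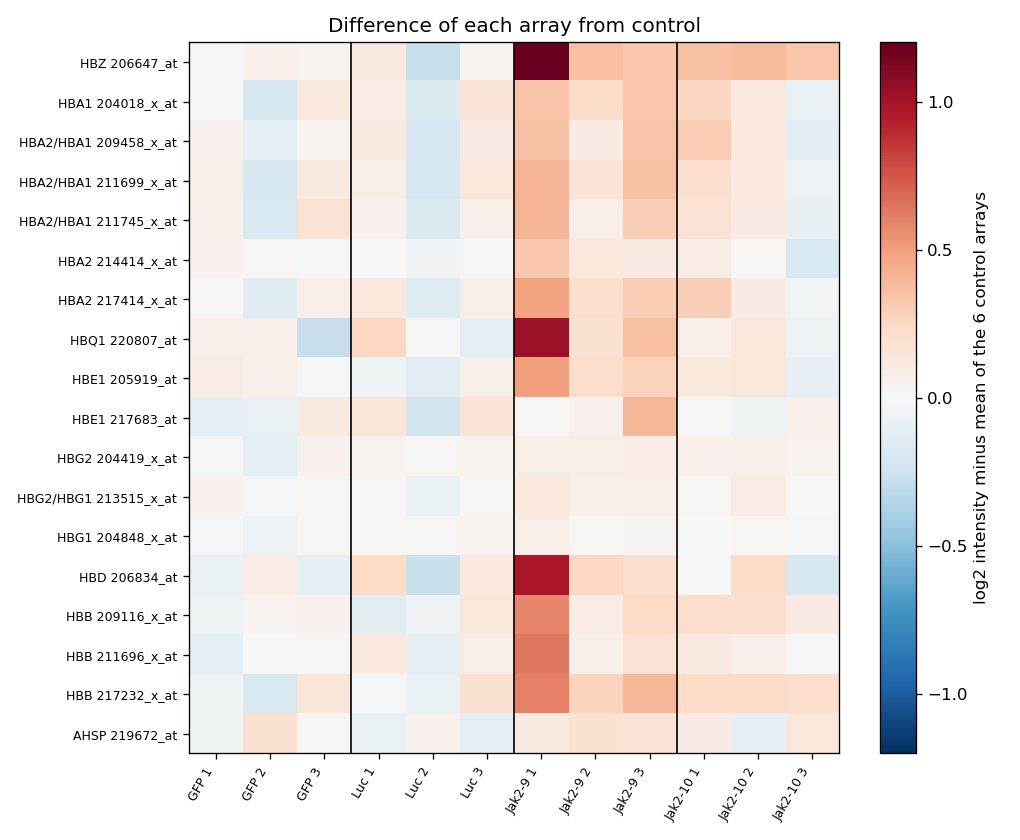
Log2 intensity of each of the 18 globin and AHSP probe sets (rows) on each of the 12 arrays (columns), minus the mean of the 6 control arrays; red is higher and blue is lower, and black lines divide the groups. Jak2-9 replicate 1 is the reddest column, with HBZ, HBQ1 and HBD about 1 log2 unit above control, and HBZ is red on all 6 knockdown arrays.

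HBZ encodes zeta globin, the embryonic alpha-like chain. Its log2 intensities were 8.02, 8.07 and 8.05 on the GFP arrays and 8.11, 7.73 and 8.05 on the Luc arrays. They were 9.19, 8.37 and 8.33 with Jak2-9 and 8.35, 8.38 and 8.34 with Jak2-10. All 6 knockdown arrays lay above all 6 controls, and 5 of the 6 lay close together while Jak2-9 replicate 1 lay far above them. On the linear scale, group means from lowest to highest were 251 ± 34.0 for Luc, 264 ± 4.47 for GFP, 328 ± 5.54 for Jak2-10 and 412 ± 149 for Jak2-9 (intensity, SD, n = 3). In that order, the neighbours Luc and GFP overlapped, as did Jak2-10 and Jak2-9, and the gap lay between the controls and the knockdowns.

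HBZ rose 1.54-fold with Jak2-9, a log2 difference of 0.62 with a standard error of 0.16 and a 95% interval of 0.28 to 0.96 (limma, adjusted p = 0.0407). With Jak2-10 the log2 difference was 0.35 with an interval of 0.01 to 0.69 and did not pass (limma, adjusted p = 0.665). For both hairpins together it was 0.49, or 1.40-fold, and also missed the threshold (limma, adjusted p = 0.0584). Without Jak2-9 replicate 1 the difference of both hairpins together was smaller, at 0.35, and passed (limma, adjusted p = 0.0114), and the Jak2-10 difference passed too (limma, adjusted p = 0.0405). The Jak2-10 difference uses no Jak2-9 array and stayed at 0.35, while the spread that the fit shares over all groups was estimated without that array. The Jak2-9 difference without replicate 1 was 0.34 and did not pass (limma, adjusted p = 0.0970). Leaving out any array other than Jak2-9 replicate 2 or 3 ended the Jak2-9 call, with adjusted p from 0.0558 to 0.0970. The call also ended with quantile normalization (limma, adjusted p = 0.0557), with only the compared arrays in the fit (0.0937), and with GFP alone (0.152) or Luc alone (0.0729) as control.

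**Figure D2:**
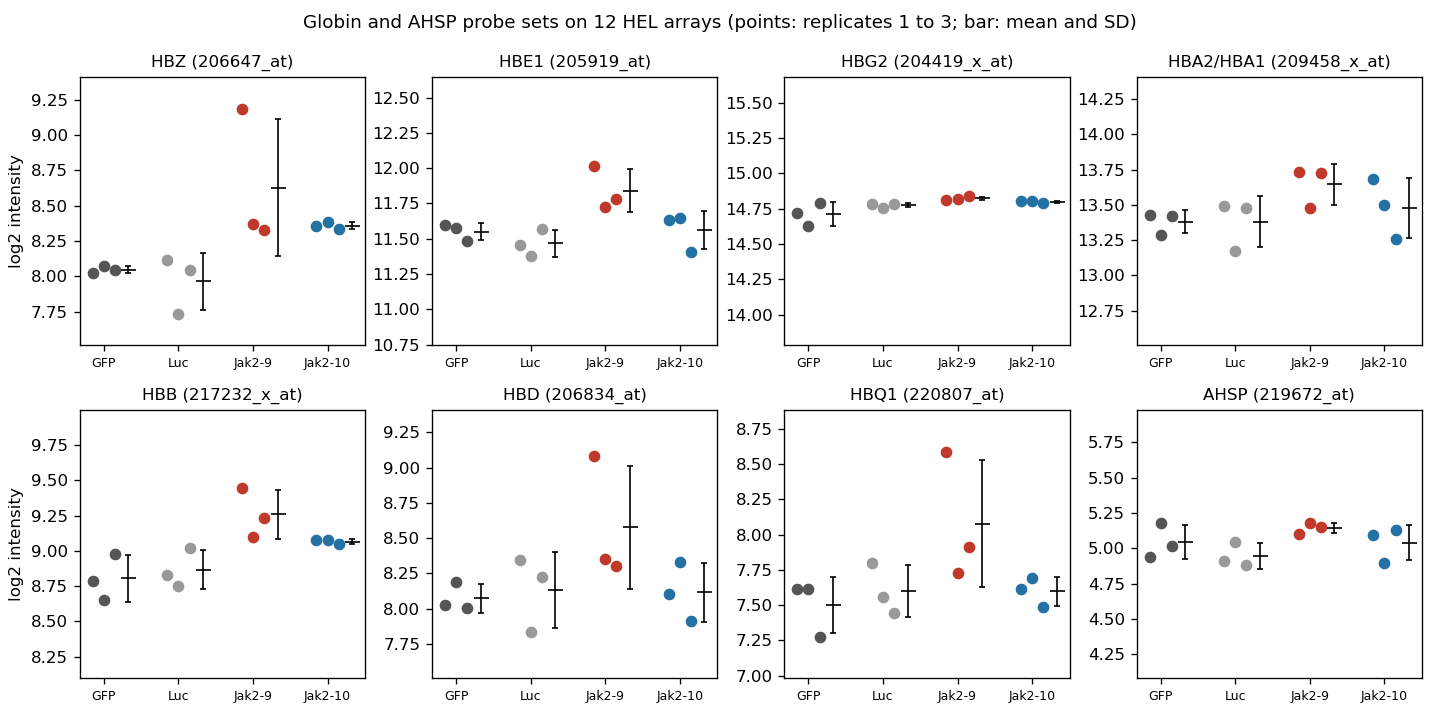
Log2 intensity (vertical axes, all of the same span) of 8 probe sets on the 3 arrays of each group; points are replicates 1 to 3 from left to right, and the bar beside them is the mean with its SD. HBZ and HBB lie above all control arrays on all 6 knockdown arrays, HBG2 spans only 14.63 to 14.84 over all 12, and Jak2-9 replicate 1 is the highest point for HBZ, HBE1, HBB, HBD and HBQ1.

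HBA1 and HBA2 encode the same alpha chain, the partner of every fetal and adult beta-like chain. Their 6 probe sets read between 12.52 and 13.73 on the log2 scale over all arrays. At the brightest of the 3 shared probe sets, 209458_x_at, the log2 intensities were 13.43, 13.29 and 13.42 on GFP, 13.49, 13.17 and 13.48 on Luc, 13.73, 13.48 and 13.72 on Jak2-9 and 13.68, 13.50 and 13.26 on Jak2-10 arrays. Jak2-9 arrays were high here, yet replicate 2 fell within the control range, and the Jak2-10 arrays ran from within that range to above it. The log2 differences of the 6 probe sets were 0.18 to 0.33 with Jak2-9 (limma, adjusted p = 0.0807 to 0.222) and -0.02 to 0.12 with Jak2-10, and none was called. At 4 of the 6 the Jak2-9 arrays all lay above the controls, against 7.48% of all probe sets and 899 of the 5669 at least as bright as HBZ. The 6 read near-identical transcripts and are not 6 separate observations.

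Within each group, 5 of the 6 alpha probe sets (all but 214414_x_at) were lowest on the same array: GFP replicate 2, Luc replicate 2, Jak2-9 replicate 2 and Jak2-10 replicate 3. Those 4 arrays were also the ones with the lowest top value in their group, meaning the intensity of the brightest probe set on the array, which ranged from 31755 to 36234. The same match in 4 of 4 groups held for HBG1 204848_x_at, for the shared HBG probe set and for HBB 217232_x_at, and in 0 of 4 for AHSP. The part of this array property in the spread of the globin values was not tested. After quantile normalization of the deposited values, which gives every array the same distribution, the alpha log2 differences were 0.07 to 0.26 with Jak2-9 and -0.02 to 0.14 with Jak2-10.

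HBQ1 encodes theta globin, an alpha-like gene whose protein has no established place in haemoglobin. Its log2 intensities were 7.62, 7.62 and 7.27 on GFP, 7.80, 7.55 and 7.45 on Luc, 8.59, 7.73 and 7.91 on Jak2-9 and 7.62, 7.69 and 7.49 on Jak2-10 arrays. Jak2-9 replicate 1 was far above the rest, Jak2-9 replicate 2 lay within the control range, and all Jak2-10 arrays did. The Jak2-9 log2 difference was 0.53 with a standard error of 0.16 and did not pass (limma, adjusted p = 0.0771). The mean of Jak2-9 replicates 2 and 3 was 0.27 above the control mean.

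Among the beta-like genes, HBE1 encodes epsilon globin, the embryonic chain. Its bright probe set, 205919_at, read 11.60, 11.57 and 11.48 on GFP, 11.45, 11.38 and 11.57 on Luc, 12.01, 11.72 and 11.78 on Jak2-9 and 11.63, 11.65 and 11.41 on Jak2-10 arrays. All 3 Jak2-9 arrays lay above every control and every Jak2-10 array, while Jak2-10 overlapped the controls. The Jak2-9 log2 difference was 0.33 with a standard error of 0.09 and missed the threshold (limma, adjusted p = 0.0589), and the mean of replicates 2 and 3 alone was 0.24 above control. With Jak2-10 it was 0.05, with a 95% interval of -0.14 to 0.25. The other HBE1 probe set, 217683_at, read only 4.15 to 4.78, below the median of every array, and so gave no usable second reading.

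HBG1 and HBG2 encode the fetal gamma chains. Their 3 probe sets were near the top of the arrays' range, at 14.55 to 14.84, where the brightest probe set of each array read 14.95 to 15.15. HBG2 204419_x_at read 14.72, 14.63 and 14.79 on GFP, 14.78, 14.76 and 14.78 on Luc, 14.81, 14.82 and 14.84 on Jak2-9 and 14.80, 14.80 and 14.79 on Jak2-10 arrays. Jak2-9 arrays were the highest by a narrow margin, and the highest control reached the Jak2-10 values. Against control, the log2 differences of the 3 probe sets with both hairpins together were 0.03 to 0.07 and none was called (limma, adjusted p = 0.606 to 0.848). The 95% intervals of these 3 differences lay between -0.10 and 0.19. How far the scale is compressed this close to its top was not tested. With quantile normalization the sign of HBG1 204848_x_at turned, to -0.012 with both hairpins together and to -0.021 with Jak2-9, and that of HBG2 204419_x_at with Jak2-9 turned to -0.00066.

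HBD encodes delta globin, the minor adult beta-like chain of haemoglobin A2. Its log2 intensities were 8.02, 8.19 and 8.00 on GFP, 8.35, 7.83 and 8.22 on Luc, 9.08, 8.35 and 8.30 on Jak2-9 and 8.10, 8.33 and 7.91 on Jak2-10 arrays. Only Jak2-9 replicate 1 lay clear of the controls, and the other 5 knockdown arrays fell within or at the edge of the control range. The log2 difference was 0.47 with a standard error of 0.17 with Jak2-9 (limma, adjusted p = 0.118) and 0.01 with Jak2-10, and the mean of Jak2-9 replicates 2 and 3 was 0.22 above control.

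HBD is the gene of the family whose promoter was matched in the RefSeq promoter table (1 of 10 genes), and it is shown for that reason. The promoters of the other members were not searched, so its motifs and their places do not stand for those of other beta-like genes. The 250 bases before the transcription start are at chr11:5234484-5234733 on the minus strand of GRCh38.p14, written 5′ to 3′ along the gene, with capitals for the motif matches described next:
HBD promoter: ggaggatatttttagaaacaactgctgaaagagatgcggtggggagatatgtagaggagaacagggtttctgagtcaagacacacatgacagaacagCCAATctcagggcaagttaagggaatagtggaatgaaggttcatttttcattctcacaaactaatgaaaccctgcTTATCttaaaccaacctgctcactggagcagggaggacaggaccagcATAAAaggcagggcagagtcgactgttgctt
Motifs were searched on both strands. CCAAT, the box bound by NF-Y, occurred 1 time, beginning 153 bases before the start, and is held by 32% of 35116 promoters of this length. ATAAA, the core of many start-site boxes, occurred 1 time, 31 bases before the start, and is held by 32.7% of those promoters. The motif GATAA, recognised by an erythroid master regulator, occurred 1 time on the opposite strand, 78 bases before the start, and is held by 20.4%. CACCC, the core of the box bound by erythroid KLF proteins, occurred 0 times in this window and is held by 54.7%. No 2 of these matches overlap. These are matches of letters and say nothing of binding in HEL cells.

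HBB encodes beta globin, the chain of adult haemoglobin. At 217232_x_at, the brightest of its 3 probe sets, the log2 intensities were 8.78, 8.65 and 8.98 on GFP, 8.83, 8.75 and 9.02 on Luc, 9.44, 9.10 and 9.24 on Jak2-9 and 9.07, 9.08 and 9.05 on Jak2-10 arrays. All 6 knockdown arrays lay above all 6 controls, but by a small step, since the highest control was 9.02 and the lowest knockdown array 9.05. From lowest to highest, group means were 449 ± 52.1 for GFP, 468 ± 45.5 for Luc, 536 ± 5.94 for Jak2-10 and 616 ± 74.8 for Jak2-9 (intensity, SD, n = 3). The neighbours GFP and Luc overlapped, and every Jak2-9 array lay above every Jak2-10 array.

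HBB at this probe set rose 1.25-fold in both hairpin groups together, a log2 difference of 0.33 with a standard error of 0.08 and a 95% interval of 0.15 to 0.50 (limma, adjusted p = 0.0456). With Jak2-9 it rose 1.34-fold, a log2 difference of 0.42 (limma, adjusted p = 0.0304), and with Jak2-10 the log2 difference was 0.23 and did not pass (limma, adjusted p = 0.641). The other HBB probe sets gave smaller differences in the same direction for both hairpins together, 0.24 at 209116_x_at and 0.17 at 211696_x_at, and neither passed (limma, adjusted p = 0.185 and 0.385). There the Jak2-9 arrays read 9.36, 8.86 and 9.01 and 9.40, 8.83 and 8.95, and the controls reached 8.90 and 8.89, so that both groups overlapped. The combined call held on leaving out GFP replicate 3, Luc replicate 3 or Jak2-9 replicate 2, and ended on leaving out any of the other 9 arrays, with adjusted p from 0.0560 to 0.136. The Jak2-9 call ended without Jak2-9 replicate 1 (log2 difference 0.33, limma, adjusted p = 0.129) and without GFP replicate 1 or 2 or Luc replicate 1 or 2 (limma, adjusted p = 0.0645 to 0.0759). With GFP alone or Luc alone as control neither call held (limma, adjusted p = 0.0778 to 0.209), the combined call also ended with an intensity trend (0.0582) or 1 probe set per gene (0.0635), and the Jak2-9 call with array weights (0.0525) or only the compared arrays (0.0684).

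**Figure D3:**
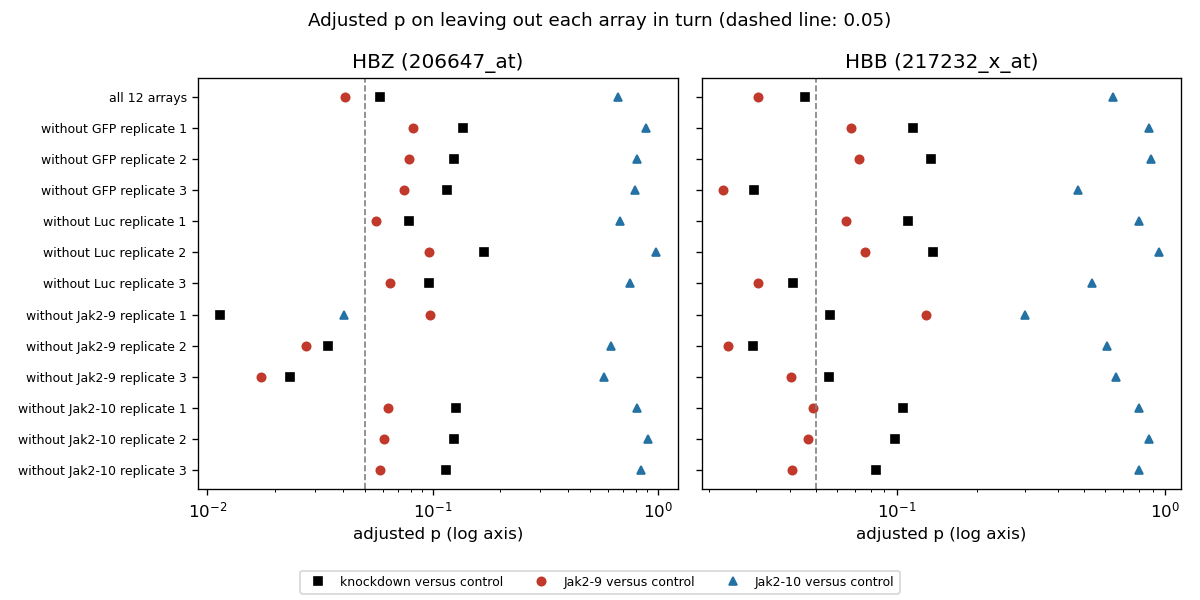
Adjusted p (horizontal log axes) of the HBZ and HBB probe sets with all 12 arrays and with each array left out in turn; squares are both hairpins together, circles Jak2-9 and triangles Jak2-10, each against control, and the dashed line is the threshold of 0.05. Most circles and squares lie within a few-fold of the line on either side, and the HBZ triangle crosses it only without Jak2-9 replicate 1.

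AHSP was read at 4.88 to 5.18 on the 12 arrays, below the median of every array (5.49 to 5.62). Probe sets of 10 genes not expected in blood cells had means of 4.12 to 5.10, so the AHSP reading was close to what these arrays give for silent genes. Its values were 4.94, 5.18 and 5.02 on GFP, 4.91, 5.05 and 4.88 on Luc, 5.10, 5.18 and 5.15 on Jak2-9 and 5.09, 4.90 and 5.13 on Jak2-10 arrays. The Jak2-9 arrays overlapped the GFP and Jak2-10 arrays and lay narrowly above the 3 Luc arrays. The log2 difference was 0.10 with both hairpins together (limma, adjusted p = 0.532).

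The hairpins were compared with each other to see whether their globin responses differed. Jak2-10 lay below Jak2-9 at 18 of 18 probe sets, as at 55.0% of all, a direction that turned for the 3 HBG probe sets with quantile normalization, with a median log2 difference of -0.20, against -0.02 over all probe sets. None of the 18 was called by limma, and 0% of all probe sets were. At an unadjusted p under 0.05, 3 of 18 were lower, against 5.54% of all probe sets: HBQ1 by -0.48, HBD by -0.46 and HBE1 205919_at by -0.28 (limma, adjusted p = 0.572 or above for all 18). Of the 5669 probe sets at least as bright as HBZ, 546 were lower at that p. For HBZ the difference was -0.27 with a 95% interval of -0.66 to 0.12, and for HBB 217232_x_at it was -0.19 with an interval of -0.44 to 0.05, so that both intervals include 0. Without Jak2-9 replicate 1 the HBZ difference was 0.01, and those of HBQ1, HBD and HBE1 205919_at were -0.22, -0.21 and -0.19. Jak2-9 replicate 1 was the highest of all 12 arrays at 15 of the 18 probe sets, several of which read the same or near-identical transcripts. How often this array was the highest over all probe sets was not counted, so the 15 are not a trait of the globins. Jak2-9 replicate 1 was also the array with the lowest JAK2 reading at 205842_s_at, 9.37. Its gap to the next highest array was 0.81 for HBZ, 0.73 for HBD and 0.68 for HBQ1, and 0.21 for HBB 217232_x_at. The part of the array's RNA quality values in these readings was not tested.

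**Figure D4:**
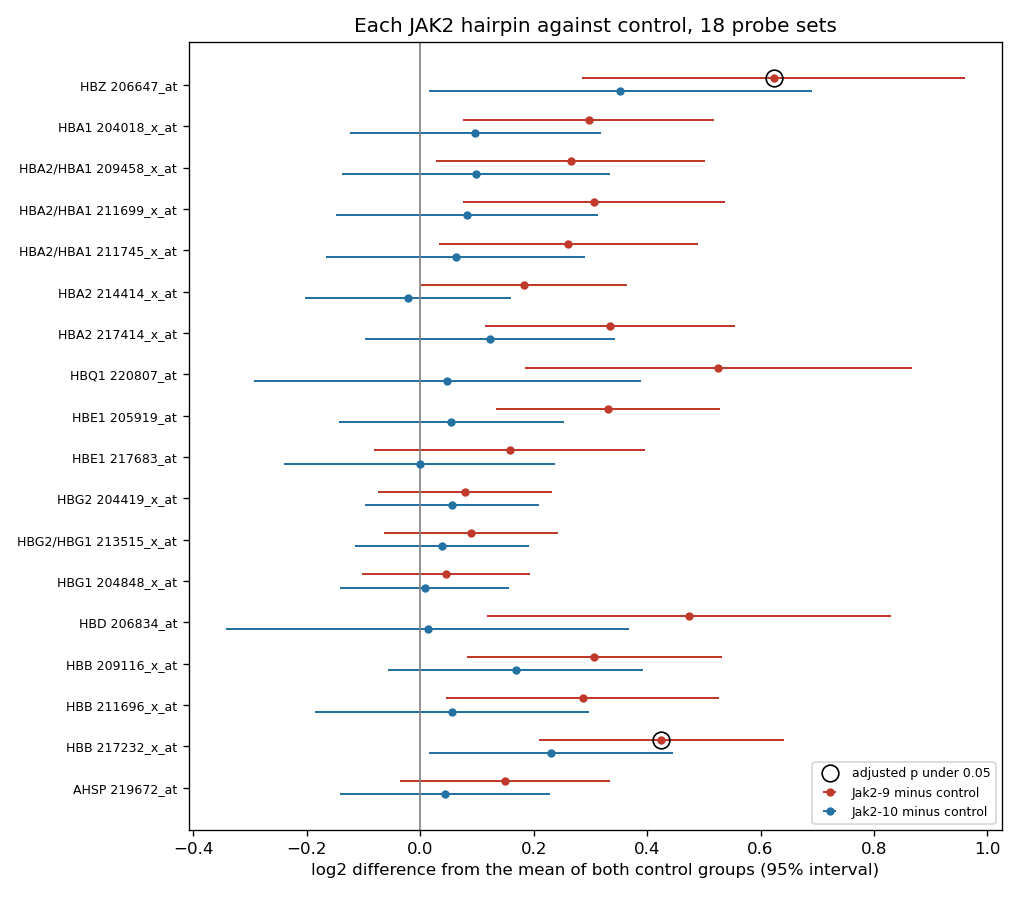
Log2 difference of each JAK2 hairpin group from the mean of both control groups for the 18 probe sets (rows), as points with 95% intervals; red is Jak2-9, blue is Jak2-10, and rings mark adjusted p under 0.05. Every red point lies to the right of its blue partner, and only HBZ and HBB 217232_x_at are ringed, both for Jak2-9.

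The controls gave the background for these differences. Luc minus GFP lay between -0.10 and 0.10 at all 18 probe sets, 0 of 18 were called by limma, 0 had an unadjusted p under 0.05, and 0% of all probe sets were called. Among all probe sets 1.58% were higher in Luc at an unadjusted p under 0.05. At 1 of 18, HBA2 214414_x_at, the Luc arrays all lay below the GFP arrays, as at 5.44% of all probe sets.

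Over the 12 arrays, which share groups and 1 normalization, the 6 alpha probe sets correlated with each other with a median Pearson r of 0.94, and of 0.92 without Jak2-9 replicate 1. The 3 HBB probe sets correlated with HBZ with a median r of 0.89, which was 0.68 without that array, and with HBD with 0.76 and then 0.35. HBQ1 and HBZ had r of 0.83, and of 0.40 without it. The alpha range was 0.70 to 0.97, and 0.58 to 0.97 without that array, with 214414_x_at the least like the others. HBD had r of 0.93 and then 0.72 with HBB 211696_x_at, and of 0.76 and then 0.72 with the shared HBG probe set. With the other HBG probe sets it was lower, at 0.61 and then 0.31 for HBG1 204848_x_at and 0.29 and then 0.22 for HBG2 204419_x_at. The probe sets of other genes most like HBZ were NME4 (r = 0.99, and 0.96 without that array), UBA7 (0.99 and 0.96) and NEU1 (0.98 and 0.94), with Spearman's rho of 0.81, 0.94 and 0.89. For HBB 217232_x_at they were LYPLA2 (0.97), LST1 (0.96) and BIN1 (0.95), for HBG2 204419_x_at TAGLN2 (0.90), ANKRD40 (0.88) and MANF (0.88), and for the shared alpha probe set ATP5F1C (0.96 at each of 2 probe sets) and SLC36A1 (0.96). For AHSP they were CIDEA (0.87), SLC34A2 (0.85) and PDGFRA (0.84). These are the highest among all probe sets with 1 gene symbol and describe these arrays only.

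Of the regulators of globin genes, 37 of 46 listed genes were measured, by 78 probe sets. With both hairpins together 2 of the 78 (2.56%) were called, both lower and both of NR2C1. This is near the share over all probe sets, where 3.14% were called in either direction and 563 of 22406 lower. NR2C1 is the nuclear receptor TR2, known as part of a complex that represses embryonic and fetal globin genes. At 204791_at its log2 intensity was 8.00, 7.70 and 7.66 on GFP, 7.85, 7.91 and 7.84 on Luc, 6.98, 7.26 and 7.33 on Jak2-9 and 7.34, 7.48 and 7.25 on Jak2-10 arrays. All knockdown arrays lay below all controls. The log2 difference was -0.55 with both hairpins together (limma, adjusted p = 0.00123), -0.64 with Jak2-9 (limma, adjusted p = 0.00256) and -0.47 with Jak2-10 (limma, adjusted p = 0.0359). Leaving out each array in turn kept the first and second of these calls in 12 of 12 fits and the Jak2-10 call in 4 of 12; it ended without GFP replicate 1 or 2, any Luc array or any Jak2-10 array, with adjusted p up to 0.239. At 210530_s_at NR2C1 fell by 0.49 (limma, adjusted p = 0.0177), a call that ended without GFP replicate 1 or 2, Luc replicate 1 or 2 or Jak2-10 replicate 1, with adjusted p up to 0.0619, and at 210531_at the difference was -0.27 (limma, adjusted p = 0.0547).

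The NR2C1 probe sets 204791_at and 210530_s_at were the only regulators called with both hairpins together (0 higher, 2 lower, or 2.56% of 78, where 3.14% of all probe sets were called). The median over the 78 was -0.01. With Jak2-9, 1 was higher and 4 were lower (6.41% of the 78 called, against 4.27% of all probe sets). Besides NR2C1, these were MTA2, a subunit of the NuRD repressor complex, at 0.52 (limma, adjusted p = 0.0482), ATRX, a chromatin remodeller needed for full alpha globin expression, at -0.81 for 208859_s_at (limma, adjusted p = 0.0217), and BACH1, a haem-sensing repressor, at -0.58 for 210818_s_at (limma, adjusted p = 0.0440). Without Jak2-9 replicate 1 the MTA2, ATRX and BACH1 calls ended (limma, adjusted p = 0.212, 0.0862 and 0.195). ATRX also lost its call without Luc replicate 2. MTA2 kept its call in 3 of 12 such fits and BACH1 in 3 of 12. The other ATRX probe sets were at -0.59 to -0.24 with Jak2-9 and not called, and BACH1 204194_at was at -0.35 and not called. Jak2-9 and control arrays overlapped at the called MTA2 and BACH1 probe sets. BACH1 210818_s_at was also dim, at a mean log2 intensity of 4.69 with Jak2-9 and 5.26 in controls, where array medians were 5.49 to 5.62. With Jak2-10 the only call was NR2C1 204791_at, lower (1.28% of the 78, against 1.37% of all probe sets).

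Genes of haem and of the red cell were measured beside the globins, and 2 of 17 haem probe sets (11.8%) and 1 of 34 red cell probe sets (2.94%) were called with both hairpins together, against 3.14% of all. Of 12 haem genes, SLC25A37, the mitochondrial iron importer of erythroid cells, fell by 0.57 with both hairpins together (limma, adjusted p = 0.000724). UROD, an enzyme of haem synthesis, fell at 222074_at by 0.81 (limma, adjusted p = 0.000518), while its other probe sets, 208970_s_at and 208971_at, were each at 0.04 and not called. Of 15 genes of the red cell membrane and cytosol, only PRDX2, a peroxidase, was called, at 215067_x_at, where it fell by 0.84 (limma, adjusted p = 0.000107), and its other 3 probe sets were at 0.14 to 0.19 and not called. Leaving out each array in turn kept these 3 calls in 12 of 12 fits. The called PRDX2 and UROD probe sets were dim, where array medians were 5.49 to 5.62. Mean log2 intensity was 4.80 with knockdown and 5.64 in controls at PRDX2 215067_x_at, and 5.40 and 6.21 at UROD 222074_at. The controls also lay apart at the called UROD and PRDX2 probe sets: Luc lay above GFP on all arrays, by 0.50 for UROD 222074_at and 0.53 for PRDX2 215067_x_at, and knockdown and control arrays overlapped for UROD. The other 3 globin family genes measured, HBBP1, NGB and MB, gave no call. HBBP1, a pseudogene that lies between HBG1 and HBD, was at 0.21 with Jak2-9 (limma, adjusted p = 0.171), and NGB and MB were below the median of all probe sets.

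Markers of blood cell types were measured beside the globins. None of the 18 erythroid marker probe sets was called in any comparison; the median over the 18 was 0.05 with both hairpins together. EPOR, the erythropoietin receptor, was at 0.32 at 396_f_at (limma, adjusted p = 0.112), while its other 5 probe sets were at -0.02 to 0.08, and GATA1, the erythroid master factor, was at 0.30 with Jak2-9 (limma, adjusted p = 0.115). The summed intensity of the erythroid markers was 41129 to 45724 on GFP, 43154 to 43717 on Luc, 39200 to 44001 on Jak2-9 and 38503 to 43978 on Jak2-10 arrays. Of 17 megakaryocyte probe sets of 8 genes, SELP, platelet P-selectin, rose by 0.43 with Jak2-9 (limma, adjusted p = 0.0161; 0.0611 without Jak2-9 replicate 1), and the list's summed intensity was 4707 to 4787 on GFP, 4800 to 5423 on Luc, 5179 to 6352 on Jak2-9 and 4685 to 5121 on Jak2-10 arrays. SELP was the only megakaryocyte call with Jak2-9 (5.88% of the 17, against 4.27% of all probe sets). VWF and PPBP were below the median of all probe sets. Granulocyte and monocyte markers had no call, with 6 of 7 genes below that median, and neither did lymphoid markers, with 3 of 5 below it. The part of megakaryocyte genes in the Jak2-9 globin values was not tested.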

How the data were processed

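Intensity values, not log-transformed, were deposited as 1 table. Per the submitters' processing notes they were made with RMA, whose version the sources used here do not give. RNA was amplified from 20 ng per array, per the labels' protocols. The planned fit assumed log2 values, so log2 was taken first, with no pseudocount. Of 22930 probe sets, 524 array controls were left out. The 12 arrays and 22406 probe sets entered 1 linear model with a mean for each of the 4 groups (R 4.3.3; lmFit and eBayes of limma 3.58.1), with Benjamini-Hochberg adjustment over all of them and a threshold of 0.05, and was tested on simulated data. Sequences came from RefSeq tables; figures used Python 3.11.15 and matplotlib 3.10.9. Detection calls were not used here, and the number of arrays limits precision. Apart from those of the HBD promoter, which the RefSeq table gives with its build, no gene coordinates are given because the deposited table names no genome build.

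The members and gene lists were chosen with earlier results of these data known. Genes named are all members, up to 4 called genes per list and comparison with the largest change (or, without any call, from the pair of lowest p), and the 3 probe sets with the highest Pearson r to the brightest probe set of HBZ, HBB, HBG, HBA and AHSP. The alternatives tried were median centring, quantile normalization, a fit without the dimmest 30% of probe sets, a replicate block, an intensity trend, array weights, 1 probe set per gene, only the arrays compared, single controls, and each array left out in turn.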

Additional observations from a re-analysis of the deposited data

How the results depend on the processing

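With both hairpins against control, 1 of 18 globin probe sets was called. It was 2 with a replicate block, median centring or array weights, and 0 with 1 probe set per gene, GFP alone or Luc alone as control. Leaving out each array gave 0 to 2. Over all probe sets, 141 were called higher with both hairpins. That count was 157 with a replicate block, 261 with median centring and 444 with array weights. It was 52 of 11942 with 1 probe set per gene, 27 with GFP alone and 64 with Luc alone. Leaving out each array gave 54 to 292 over all probe sets. With Jak2-9 the 2 calls became 5 with median centring or an intensity trend, 1 with quantile normalization or array weights, and 0 with only the arrays compared, GFP alone or Luc alone, and leaving out each array gave 0 to 5. Over all probe sets, the 368 called higher with Jak2-9 became 856 with median centring and 397 with the trend. They became 326 with quantile normalization, 364 with array weights and 154 with only the arrays compared. GFP alone gave 66, Luc alone 147, and leaving out each array 88 to 1061. With Jak2-10 the 0 calls became 1 without Jak2-9 replicate 1, for a range of 0 to 1, while the higher calls over all probe sets went from 19 to 65. The comparison of the hairpins and that of the controls gave 0 in every setting. With both hairpins together, HBB 217232_x_at also lost its call under the intensity trend (limma, adjusted p = 0.0582). Fewer arrays entered the fits with a single control, and the causes of the other changes were not tested. There were 822 alternative values of single probe sets for both hairpins together and for Jak2-9, and for HBZ and HBB 217232_x_at with Jak2-10. Of these, 765 kept direction and side of the threshold, 36 lost their call and 18 gained one. The other 3 reversed, all with quantile normalization: HBG1 204848_x_at to -0.012 with both hairpins and -0.021 with Jak2-9, and HBG2 204419_x_at to -0.00066 with Jak2-9. Of 1095 further values (the other Jak2-10 values, Jak2-10 minus Jak2-9, Luc minus GFP and JAK2), 1031 kept both, 7 passed the threshold and 57 reversed, among them HBZ in Jak2-10 minus Jak2-9, from -0.27 to 0.01 without Jak2-9 replicate 1. Among the calls made over all probe sets, median centring raised the share that were higher from 20.0% to 33.2% with both hairpins. With Jak2-9 this share of the calls went from 38.5% to 59.6% (368 higher and 588 lower became 856 and 580). After group means were removed, arrays of different groups with the same replicate number correlated at -0.14 to 0.19, over 0.1 in 4 of 18 pairs. Those with different numbers correlated at -0.18 to 0.17, over 0.1 in 5 of 36 pairs. Whether the numbers pair the arrays was not tested. With the replicate block the Jak2-9 calls among the 18 went from 2 to 3, and the higher calls over all probe sets from 368 to 491. Dim readings, such as AHSP, HBE1 217683_at, PRDX2 215067_x_at, UROD 222074_at and BACH1 210818_s_at, limit what the arrays can show.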
